A study of Macaca fascicularis with 2 samples.

Results

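Notch genes were described in single cells of monkey cartilage and intervertebral disc: the receptors NOTCH1, NOTCH2 and NOTCH3, the ligands DLL1, JAG1 and JAG2, and the target genes HES1, HEY1, HEY2 and HEYL. These 10 genes were chosen by name, and 8 of them had a row among the 21371 genes listed in the count matrix. NOTCH3 and JAG2 had no row and were not analysed here. The cells were articular cartilage (AC) and nucleus pulposus (NP) cells of 2 wild-type male cynomolgus monkeys aged 3 years, with no treatment, joined in 1 library that was sequenced by TAS-seq, a bead-based single-cell method. Each cell carried 1 of 4 sample tags, A951 to A954. The labels list 3 tissue samples, AC3, NP3 and AC4, the study's quality plots show an NP4 as well, and no source used here pairs a tag with a tissue or a monkey, so tags are given side by side and are not treated as replicates. Since there was 1 library, no test between conditions was possible. Intervals of levels cover the counting of pooled reads only. They are too narrow because they leave out variation between cells and because reads were counted without molecular identifiers. Intervals of shares of cells take each cell as independent, although cells are not replicates. Neither kind covers variation between samples or monkeys.

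In the Notch pathway, a ligand on one cell binds a receptor on its neighbour, the receptor is cut by ADAM10 and then by the γ-secretase complex, and the freed intracellular part joins RBPJ and MAML proteins in the nucleus to switch on HES and HEY repressor genes. HES1 is also known to respond to other signals and oscillates in many cells. In cartilage and the disc, the pathway is known for holding progenitor cells in an immature state and for its changes in degeneration.

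The matrix held 5723 cells, of which 42 carried several tags, 7 carried none and 5674 carried 1; 21 of the latter were removed by limits on genes and mitochondrial reads, and 5653 were kept. No cell number was shared by 2 columns. Notochordal cells (NCs), the large cells of the young NP that descend from the notochord, were taken as cells with at least 5 reads of both KRT19, a keratin, and TBXT, the notochord transcription factor. There were 310 NCs (5.48% of kept cells): 67 in A951, 236 in A952, 5 in A953 and 2 in A954. The remaining 5343 cells, called other cells, numbered 928, 889, 1372 and 2154 in the same order. Median depth was 186370 reads per NC and 199072 reads per other cell, and a median of 4061 and 3819 genes was detected.

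Genes that the rule did not use bore on the name. CDH2, an adhesion molecule of notochordal cells, was at 120 reads per 1000000 reads (rpm) in NCs and 1.16 rpm in other cells. APOE was at 10894 against 142 rpm, and the ligand gene SHH at 98.7 against 0.847 rpm. CHRD, a secreted BMP antagonist of the notochord, was at 28.9 against 20.5 rpm, the transcription factor FOXA2 was lower in NCs at 0.908 against 5.46 rpm, and NOG had no row. The cartilage collagen COL2A1 was at 1269 rpm in NCs and 20072 rpm in other cells, whereas the proteoglycan ACAN was at 14440 against 3968 rpm and its regulator SOX9 at 1120 against 346 rpm. Of the 8 chondrocyte markers examined, 6 were at least 2-fold lower in NCs and 2 at least 2-fold higher. In total, 8 of the 10 notochordal marker genes with a row were at least 2-fold higher in NCs and 1 was lower. Markers of other cell types were examined because vessels also use Notch. The 7 endothelial markers with a row summed to 4.57 rpm in NCs and 3.89 rpm in other cells, VWF being the most abundant, and at most 0.645% of NCs had 5 or more reads of any of them. Among 8 markers of pericytes and smooth muscle, 3 were at least 2-fold higher in NCs and 3 lower; the sum of 4843 rpm in NCs against 209 rpm was nearly all TAGLN, an actin-binding protein found in many cell types, at 4686 rpm. Immune markers summed to 25.4 rpm in NCs and 49.5 rpm in other cells, but 2 of the 5 with a row were at least 2-fold higher in NCs and 1 was lower. In A951 and A952 the sums were alike, at 25.4 and 26.0 rpm in NCs and 23.5 and 29.7 rpm in other cells. In other cells of A953 the sum was 100.5 rpm.

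A single read was a poor sign of expression here. Endothelial markers had 1 or more reads in 3.87% to 20.0% of NCs and in 2.26% to 23.0% of other cells, at similar depth, although 5 or more reads were at 0.187% of other cells or fewer. NOTCH1 had at least 1 read in 27.7% of NCs and 27.1% of other cells, with a median of 2 reads and 1 read in those cells. Shares of cells are therefore given at 5 or more reads, with Clopper-Pearson 95% intervals, and pooled levels as rpm; the level of one gene is never set against that of another, since transcript length was not taken into account.

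The receptors differed between the cell groups in opposite directions. NOTCH1 was higher and NOTCH2 lower in NCs. NOTCH1 was at 16.0 rpm in the NCs of A951 and 33.5 rpm in those of A952, and at 10.9, 13.6, 13.4 and 7.73 rpm in the other cells of A951 to A954. The NC values lay above all 4 values of other cells, narrowly in A951 and by far in A952, but 1 NC held 64 of the 195 reads in A951. Without the top cell of each, the NCs of A951 were at 10.7 rpm, within the range of 7.40 to 12.6 rpm of the other cells, and those of A952 at 29.3 rpm. Pooled over tags, NOTCH1 was at 29.0 rpm (27.7 to 30.4) in NCs and 10.5 rpm (10.4 to 10.7) in other cells, a log2 ratio of 1.46. At least 5 reads were found in 11.0% of NCs (7.72 to 15.0) and 4.15% of other cells (3.64 to 4.73). The size of the NOTCH1 difference rested on A952: without that tag, the log2 ratio was 0.41, and within A951 alone the share was 8.95% of 67 NCs (3.36 to 18.5) against 4.20% (3.01 to 5.70).

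NOTCH2 was at 72.0 rpm in the NCs of A951 and 82.5 rpm in those of A952, and at 165, 153, 122 and 128 rpm in the other cells of A951 to A954. Both NC values lay below all 4 values of other cells. The pooled level was 79.6 rpm (77.4 to 81.7) in NCs and 136 rpm (135 to 136) in other cells, a log2 ratio of -0.77. At least 5 NOTCH2 reads were found in 29.4% of NCs (24.3 to 34.8) and 47.8% of other cells (46.5 to 49.2), so that NCs minus other cells came to -18.5 percentage points (-23.5 to -13.0, Newcombe interval). The shares of NCs were alike in both tags, at 28.4% and 29.2%. Of the cells with a read, NCs held a median of 4 NOTCH2 reads and other cells 20.

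The receptors were also read cell by cell. NOTCH1 without NOTCH2, each by the limit of 5 reads, was found in 7.42% of NCs (4.76 to 10.9) and 1.80% of other cells (1.46 to 2.19). NOTCH2 without NOTCH1 was found in 25.8% of NCs (21.0 to 31.1) and 45.5% of other cells (44.1 to 46.8), both receptors in 3.55% and 2.36%, and neither in 63.2% and 50.4%. The cells with neither receptor were shallower, with a median of 154302 reads among NCs and 161151 among other cells, against 251325 and 236914 in cells with NOTCH1 only.

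The ligands showed no such split with all cells included. JAG1, the Jagged ligand with a row, was at 20.1 and 12.4 rpm in the NCs of A951 and A952, and at 12.6, 17.5, 16.2 and 9.66 rpm in the other cells of the 4 tags. The NC value of A951 lay above the range of other cells and that of A952 within it. One NC of A951 held 107 of its 245 reads; without the top cell of each, the NCs were at 11.3 and 8.65 rpm and the other cells at 9.15 to 15.9 rpm. Pooled, JAG1 stood at 13.8 rpm in NCs and 12.9 rpm in other cells, and 4.52% of NCs (2.49 to 7.46) and 4.23% of other cells (3.71 to 4.80) had 5 or more reads. DLL1, a Delta ligand, was at 2.13 and 5.88 rpm in the NCs of A951 and A952, and at 9.25, 6.77, 6.73 and 5.33 rpm in other cells. A single NC held 38.2% of the 411 DLL1 reads of NCs. Without the top cell of each, the NCs were at 0.164 and 2.82 rpm, below the other cells at 4.59 to 6.84 rpm. The pooled log2 ratio of DLL1 went from -0.07 to -0.67 without the top cell of each group. The pooled levels were 6.22 rpm in NCs and 6.51 rpm in other cells, with 5 or more reads in 2.26% (0.913 to 4.60) and 2.71% (2.29 to 3.19) of cells. With 7 NCs and 14 NCs positive for DLL1 and JAG1, differences smaller than these intervals were not detectable at this depth.

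**Figure D1:**
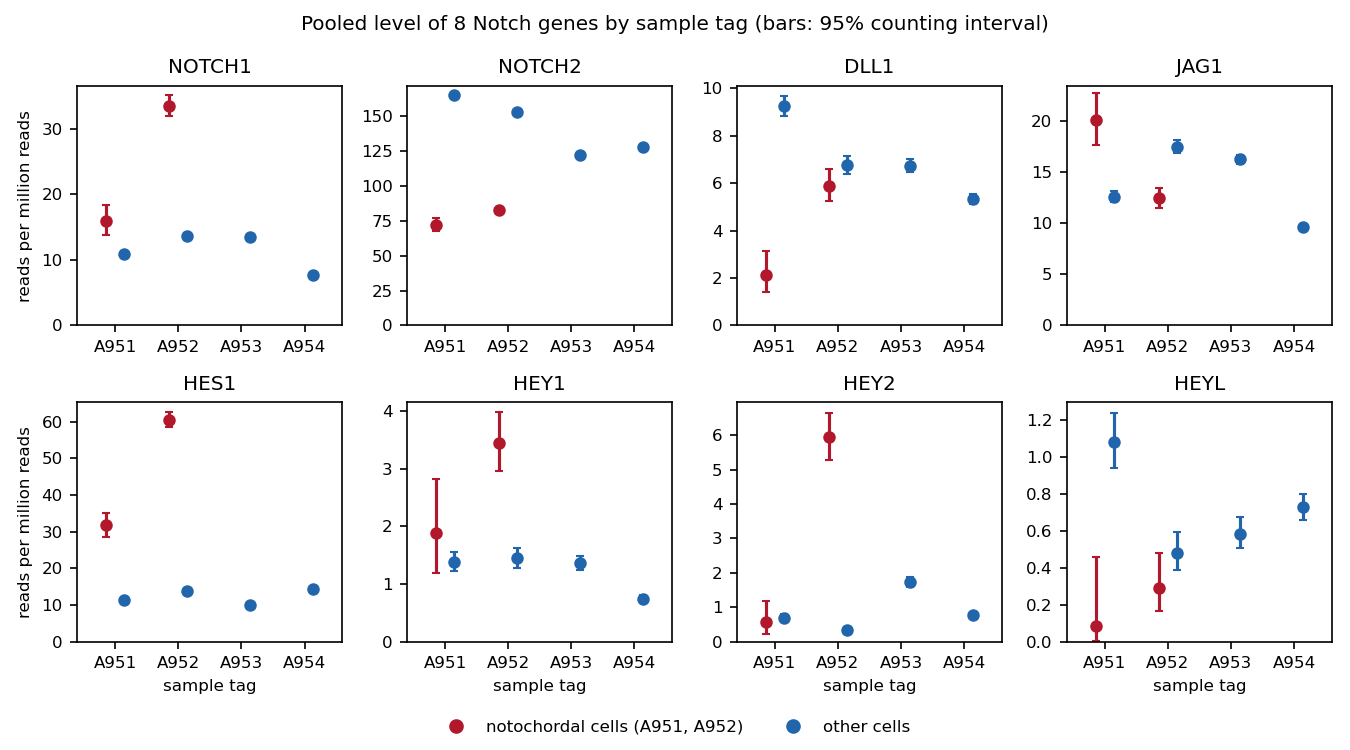
Pooled level of each Notch gene in rpm (vertical axis, from 0, a scale of its own per gene) in NCs of tags A951 and A952 (red) and in other cells of all 4 tags (blue), with exact Poisson 95% intervals; the 7 NCs of A953 and A954 are too few to draw. With all cells included, HES1 and NOTCH1 lie higher and NOTCH2 lower in NCs of both tags, while JAG1 changes sides and HEY2 is high in the NCs of A952.

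Among the target genes, HES1 stood apart. It was at 31.7 rpm in the NCs of A951 and 60.5 rpm in those of A952, and at 11.3, 13.9, 9.94 and 14.2 rpm in the other cells of A951 to A954. Both NC values were above all values of other cells, which lay close together. In A951, 1 NC held 160 of the 387 HES1 reads of NCs. Without the top cell of each, the NCs were at 18.6 and 45.3 rpm and the other cells at 9.24 to 13.6 rpm. The pooled level was 53.9 rpm (52.1 to 55.7) in NCs and 12.6 rpm (12.4 to 12.8) in other cells, a log2 ratio of 2.09. One NC of A952 held 780 HES1 reads, 21.9% of all HES1 reads of NCs; without the top cell of each group the log2 ratio was 1.78, and without tag A952 it was 1.31. At least 5 reads were found in 58 of the 310 NCs, 18.7% (14.5 to 23.5), and in 6.85% of other cells (6.19 to 7.56). That share was 16.4% (8.49 to 27.5) in A951 NCs and 19.5% (14.6 to 25.1) in A952 NCs, and between 6.07% and 7.71% in the other cells of the 4 tags. Of the genes compared, 92.2% had a lower log2 ratio than HES1 and 85.4% a lower one than NOTCH1, whereas 14.5% had a lower one than NOTCH2.

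The HEY genes, repressors related to HES1 that serve in vessels, heart and bone, were rare in both groups. HEY1 had 5 or more reads in 3 NCs (0.968%, 0.200 to 2.80) and 26 other cells (0.487%, 0.318 to 0.712), and 1 NC held 63.0% of the HEY1 reads of NCs. HEY2 had 5 or more reads in 7 NCs (2.26%, 0.913 to 4.60) and 30 other cells (0.561%, 0.379 to 0.801). Its level was 0.574 rpm in the NCs of A951 and 5.94 rpm in those of A952, against 0.672 and 0.338 rpm in other cells of the same tags, so NCs were higher in A952. In A951 the counts were too low to order the groups: NCs had 7 reads, and 1 other cell held 99 of the 134 reads of other cells. The pooled log2 ratio of HEY2 was 2.32, and it turned to -1.13 without A952. HEYL had 16 reads in all NCs, with 5 or more in 1 NC, and 5 or more in 15 other cells (0.281%). Its pooled log2 ratio of -1.56 rested on those 16 reads, while the shares of cells, 0.323% of NCs and 0.281% of other cells, were nearly equal.

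Depth was then made equal by thinning each cell to 50000 reads, which left out 11 NCs and 196 other cells. At least 5 reads remained in 6.69% of NCs and 2.47% of other cells for NOTCH1, in 20.4% and 35.5% for NOTCH2, and in 10.7% and 3.71% for HES1. For JAG1 the thinned shares were 3.34% and 2.97%, and for DLL1 1.34% and 1.57%. By these shares the order of the groups was the same as without thinning for the 5 genes, but the log2 ratio of the JAG1 level went from 0.09 to -0.19.

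**Figure D2:**
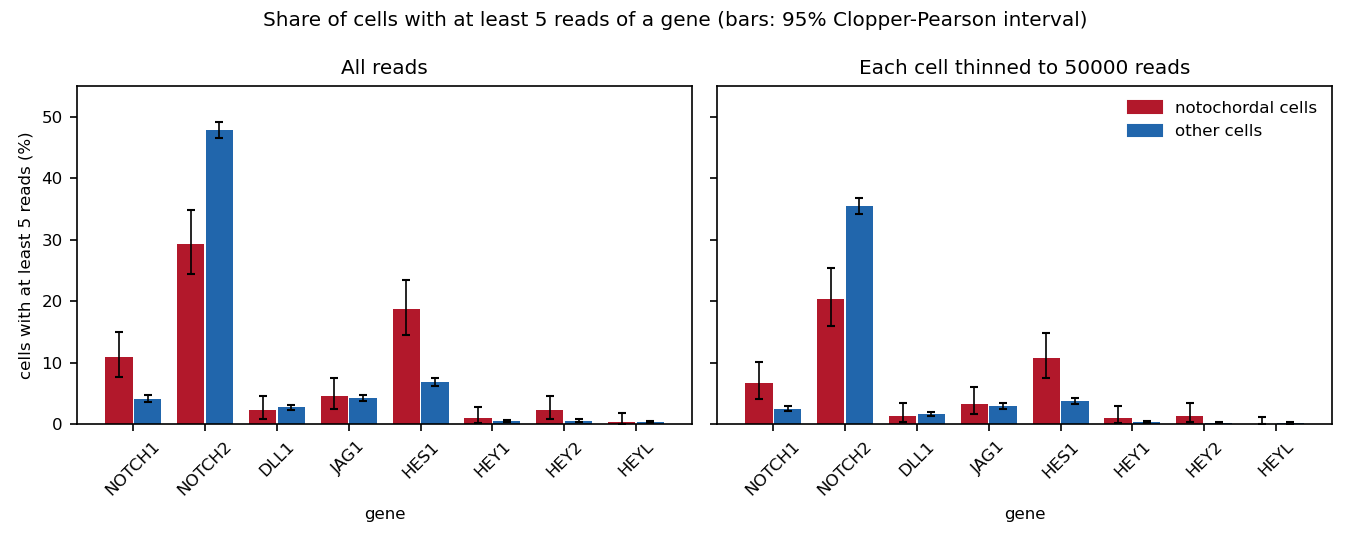
Percentage of cells with at least 5 reads of each gene (vertical axis, from 0) in NCs (red) and other cells (blue), with all reads on the left and each cell thinned to 50000 reads on the right; black bars are Clopper-Pearson 95% intervals. NOTCH2 is found in more other cells (47.8%) than NCs (29.4%), and NOTCH1 and HES1 in more NCs, at both depths.

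These differences were set against all genes. A gene was compared where at least 10% of the cells of 1 group had a read; 9964 genes passed, among them 5 of the 8 (NOTCH1, NOTCH2, DLL1, JAG1 and HES1). Of these 5, NOTCH1 and HES1 were at least 2-fold higher in NCs, where 24.4% of all genes were, and none was at least 2-fold lower, where 11.4% of all genes were. NCs and other cells differed in a large part of the transcriptome, and 2 of 5 genes is not far from that background. The median log2 ratio of all genes was 0.30. Leaving the 100 most abundant genes out of the read totals brought this median to 0.02 and moved every gene down: NOTCH1 was then at 1.18, HES1 at 1.82, DLL1 at -0.34, JAG1 at -0.19 and NOTCH2 at -1.05. Over 18 other ways of processing, HES1 and NOTCH1 were higher in NCs in all 18, by 2-fold or more in 17 and 16, and NOTCH2 was lower in all 18, by 2-fold or more in 2.

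In the other cells, the Notch genes were compared between tags. The highest of the 4 tags was above the lowest by 1.35-fold for NOTCH2, 1.43-fold for HES1, 1.74-fold for DLL1, 1.76-fold for NOTCH1 and 1.81-fold for JAG1. None of the 5 reached 2-fold, which 11.8% of all genes did, with a median of 1.36-fold over all genes. The ratio was larger than that of 81.7% of genes for NOTCH1, 83.3% for JAG1 and 80.6% for DLL1, and than that of 48.5% for NOTCH2. For the scarce genes the ratio was 1.96-fold for HEY1, 2.25-fold for HEYL and 5.12-fold for HEY2, whose highest tag was A953 at 1.73 rpm.

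The rest of the pathway was examined through a list of 54 further genes grouped by role. A row was found for 46, and 37 had a read in 10% of the cells of a group. Of the 37, 9 (24.3%) were at least 2-fold higher in NCs and 4 (10.8%) at least 2-fold lower, against 24.4% and 11.4% of all genes, and the median log2 ratio was 0.42 against 0.30. As a whole, the list was close to the background. Among the genes with no row were NOTCH4, PSEN2, PSENEN, CREBBP, CIR1, HES4 and NRARP. The further Delta ligands DLL3 and DLL4 were below the limit in both groups, as were HES2, HES5, HES6 and HES7.

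Of the genes that prepare the receptor and ligand, LFNG, the fringe enzyme that extends sugars on the receptor, was at 15.5 and 10.3 rpm in the NCs of A951 and A952 and at 2.23 and 1.65 rpm in their other cells, a pooled log2 ratio of 2.50. Few cells carried it: 3.87% of NCs (2.02 to 6.66) and 0.786% of other cells had 5 or more reads. POFUT1, which puts the first fucose on the receptor, had a log2 ratio of 1.36 and was found in 54.5% of NCs (48.8 to 60.2) and 27.5% of other cells. In the cleavage group, ADAM10 was at 40.4 rpm in NCs and 21.2 rpm in other cells, a log2 ratio of 0.93. APH1B, a scaffold subunit of γ-secretase, was at 131 against 29.5 rpm, a log2 ratio of 2.15 that was 2.02 within A951 and 2.43 within A952. DLK1, a Delta-like protein without the domain that activates the receptor, was lower in NCs, at 48.6 and 11.6 rpm in A951 and A952 against 194 and 219 rpm in other cells, a pooled log2 ratio of -2.17. NEURL1, a ligase for ligand uptake, had a pooled log2 ratio of -1.41, but -0.78 and -0.67 within A951 and A952.

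In the nucleus, RBPJ, the DNA-binding partner of the cleaved receptor, was at 111 rpm in NCs and 96.1 rpm in other cells, a log2 ratio of 0.21. The co-activator MAML2 was at 90.2 and 115 rpm in the NCs of A951 and A952 and at 19.2 and 23.4 rpm in their other cells, a log2 ratio of 2.32, and it was found in 29.0% of NCs (24.0 to 34.4) against 10.5% of other cells. MAML3 was at 1.26, with 0.49 within A951 and 1.86 within A952, and its share of positive cells differed by 0.939 percentage points (-0.0182 to 3.05). Of the Groucho-type corepressors, TLE4 had a log2 ratio of 1.56, and TLE2 one of -1.63 that was 0.30 within A951 and -3.21 within A952. HEXIM1, a transcription elongation inhibitor, had a log2 ratio of 1.26. The list places it with further HES and feedback genes, and it was the only one of them past the limit of 10% of cells. Whether Notch controls HEXIM1 in these cells was not tested.

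Among the genes that the list groups as inhibitors, DTX4 and NUMBL were farthest apart. The role is that of the list, and what DTX4 does to Notch in these cells was not tested. DTX4, a Deltex ubiquitin ligase, had 5 or more reads in 26 NCs (8.39%, 5.55 to 12.0) and in 2 of the 5343 other cells (0.0374%, 0.00453 to 0.135). Its level was 13.5 and 21.6 rpm in the NCs of A951 and A952 and 0.181 and 0.737 rpm in their other cells, a pooled log2 ratio of 6.23. After thinning to 50000 reads, 7.02% of NCs and 0.0389% of other cells still had 5 DTX4 reads. NUMBL, a relative of the Notch antagonist NUMB, was lower in NCs, at 12.7 and 14.7 rpm against 76.8 and 74.4 rpm in A951 and A952, a pooled log2 ratio of -2.24. FBXW7, a ligase subunit that marks the cleaved receptor for breakdown, was at 1.02.

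**Figure D3:**
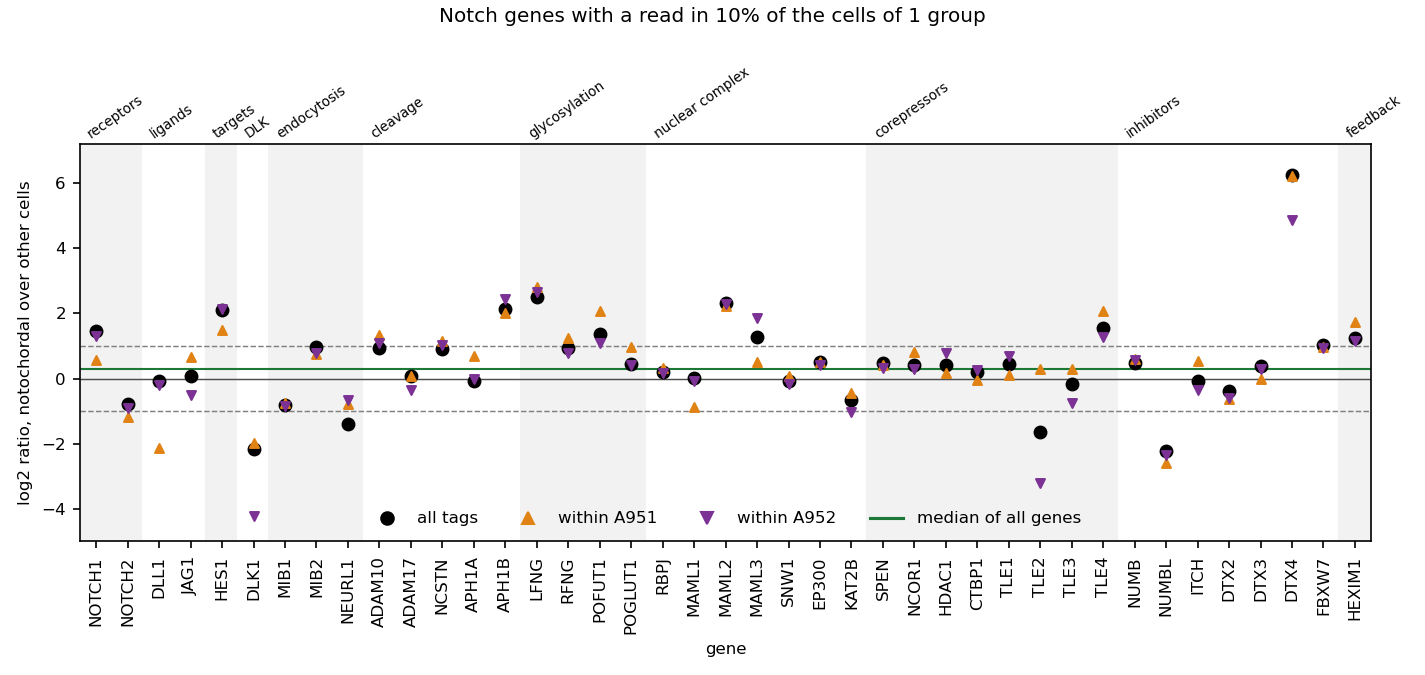
Log2 ratio of the pooled level in NCs over other cells (vertical axis) for the 5 Notch genes and all but 1 of the 37 pathway genes with a read in 10% of the cells of a group (horizontal axis, by role), over all tags (black circles) and within A951 (orange) and A952 (purple); dashed lines mark 2-fold and the green line the median of all genes, 0.30. DTX4, which passed the limit through NCs only, lies highest at 6.23. NUMBL and DLK1 lie lowest over all tags, and TLE2 differs in sign between A951 and A952.

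HES1 was then compared with the other genes cell by cell, between cells with at least 5 HES1 reads and cells with none. Among other cells there were 366 and 4673 of these, and among NCs 58 and 233. The HES1-positive cells were deeper, with a median of 259880 against 192503 reads among other cells and 210590 against 172263 reads among NCs. Among other cells the pooled levels of the receptors and of RBPJ were not higher in HES1-positive cells: NOTCH1 was at 9.42 against 10.6 rpm, NOTCH2 at 107 against 140 rpm and RBPJ at 74.2 against 97.7 rpm. By share of cells NOTCH1 went the other way, with 5 or more reads in 6.56% against 4.00%, a difference of 2.56 percentage points (0.360 to 5.62). At 50000 reads per cell the pooled difference was 0.928 percentage points (-0.563 to 3.35), an interval with both signs. The tags differed in sign, with log2 ratios of NOTCH1 of 0.71, 0.68, -1.91 and -0.04 in A951 to A954. At 50000 reads per cell the differences were 2.62, 4.74, -2.14 and 0.745 percentage points. Their intervals were -0.863 to 11.2, 0.0334 to 14.9, -3.70 to 3.31 and -0.893 to 4.42, with cells counted as independent. Among NCs NOTCH2 was at 89.7 rpm in HES1-positive and 76.5 rpm in HES1-negative cells, with log2 ratios of -0.71 within A951 and 0.46 within A952, and NOTCH1 was at 20.1 against 28.0 rpm, with 2.10 and -1.02 within these tags. The ligand JAG1 was higher, at 23.1 against 10.1 rpm, a log2 ratio of 1.20, and 10.4% of HES1-positive and 3.42% of HES1-negative other cells had 5 or more JAG1 reads, a difference of 6.96 percentage points (4.18 to 10.5). The log2 ratios were 2.90, 1.46, 0.71 and 0.80 in A951 to A954. A single HES1-positive cell held 54.8% of these JAG1 reads in A951 and 52.4% in A952, and without the top cell of each side the ratios were 1.94, 0.54, 0.37 and 0.74. At 50000 reads per cell 6.63% against 2.50% of the cells had 5 or more JAG1 reads, a difference of 4.13 percentage points (1.94 to 7.21). Among NCs the pooled log2 ratio of JAG1 was 1.20 as well, but it was 4.22 within A951, where 11 cells were HES1-positive, and -0.16 within A952. DLL1 was at 4.98 against 7.11 rpm among other cells. HEY1, another target gene, was at 3.39 against 0.889 rpm, but 1 cell held 44.1% of those reads, and the log2 ratio was 4.75 within A953 and -2.77 to 0.22 within the other 3 tags.

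Immediate early genes, which cells switch on within minutes of a stimulus, including the handling of tissue, and ID genes, targets of BMP signalling, were set beside HES1. The study had already named JUN, ID1, ID3, NR4A1, NR4A2 and PER1 together with HES1 as markers of its common3 cluster. That cluster was drawn from data that include this library, so their joint rise with HES1 in other cells is not an independent result. In other cells the HES1-positive cells held more of nearly all of them. FOS was at 2078 against 364 rpm, a log2 ratio of 2.51, and at 2.05 to 2.94 within the 4 tags. JUN was at 1734 against 378 rpm and ID1 at 241 against 50.5 rpm, the latter a log2 ratio of 2.25. NR4A1, PER1, ID3, FOSB and EGR1 had log2 ratios between 1.20 and 1.78, NR4A2 had 0.63 and ID2 had -0.14. At 50000 reads per cell, 5 or more ID1 reads were found in 28.5% of HES1-positive and 7.54% of HES1-negative other cells, and 5 or more FOS reads in 42.3% and 19.5%. JUNB, ATF3 and IER2 had no row.

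In NCs the early and ID genes gave mixed values. FOS was at 1344 rpm in HES1-positive and 2423 rpm in HES1-negative NCs, a log2 ratio of -0.85 that was 0.28 within A951, with 11 HES1-positive cells, and -1.33 within A952. In A951, 1 of the 11 cells held 49.9% of their FOS reads. Without the top cell of each side the ratios were -0.36 and -1.74. By share of cells, 5 or more FOS reads were found in 100% against 65.5% in A951, a difference of 34.5 percentage points (6.35 to 47.7). In A952 they were found in 60.9% against 65.7%, a difference of -4.83 percentage points (-20.7 to 9.89). At 50000 reads per cell these differences were 21.4 (-10.4 to 40.2) and -18.1 percentage points (-32.5 to -1.60). JUN had a pooled log2 ratio of 0.42, with 1.74 and -0.17 within A951 and A952, but by share of cells it was higher in HES1-positive NCs of both tags, by 29.1 (1.23 to 42.1) and 14.3 (2.86 to 21.5) percentage points; at 50000 reads per cell these differences were 28.6 (-2.34 to 44.0) and 10.8 (-3.36 to 20.7). ID1 had a pooled log2 ratio of 0.30, with 1.24 and 0.05 within the tags. ID2 was at -0.50 and FOSB at -0.37. NR4A1 was at 0.59, ID3 at 0.53, NR4A2 at 0.47, EGR1 at 0.42 and PER1 at 0.15. Without the top cell of each side, NR4A2 was at -0.03 and EGR1 at 0.10. With all reads, 5 or more ID3 reads were found in 37.9% of HES1-positive and 19.7% of HES1-negative NCs. By share of cells, 5 or more reads of EGR1 were found in 51.7% of HES1-positive and 30.0% of HES1-negative NCs, of NR4A1 in 63.8% and 36.5%, of NR4A2 in 51.7% and 30.9%, of FOSB in 46.6% and 46.4%, and of PER1 in 62.1% and 51.1%. At 50000 reads per cell the differences were 16.2 percentage points for EGR1 (3.06 to 30.2), 20.1 for NR4A1 (5.96 to 33.8), 11.4 for NR4A2 (-1.45 to 25.4), -1.61 for FOSB (-15.0 to 12.8) and 10.6 for PER1 (-3.74 to 24.4). At 50000 reads per cell, 5 or more FOS reads were found in 45.6% and 54.5% of them, a difference of -8.85 percentage points (-22.7 to 5.52), and 5 or more ID1 reads in 38.6% and 21.4%, a difference of 17.2 percentage points (4.24 to 31.0). Whether the ratios differed between NCs and other cells was not tested. Between the cell groups, FOS was at 2237 rpm in NCs against 551 rpm in other cells, JUN at 3104 against 520 rpm and ID1 at 207 against 72.4 rpm, whereas ID2 was lower in NCs, at 1131 against 1975 rpm.

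**Figure D4:**
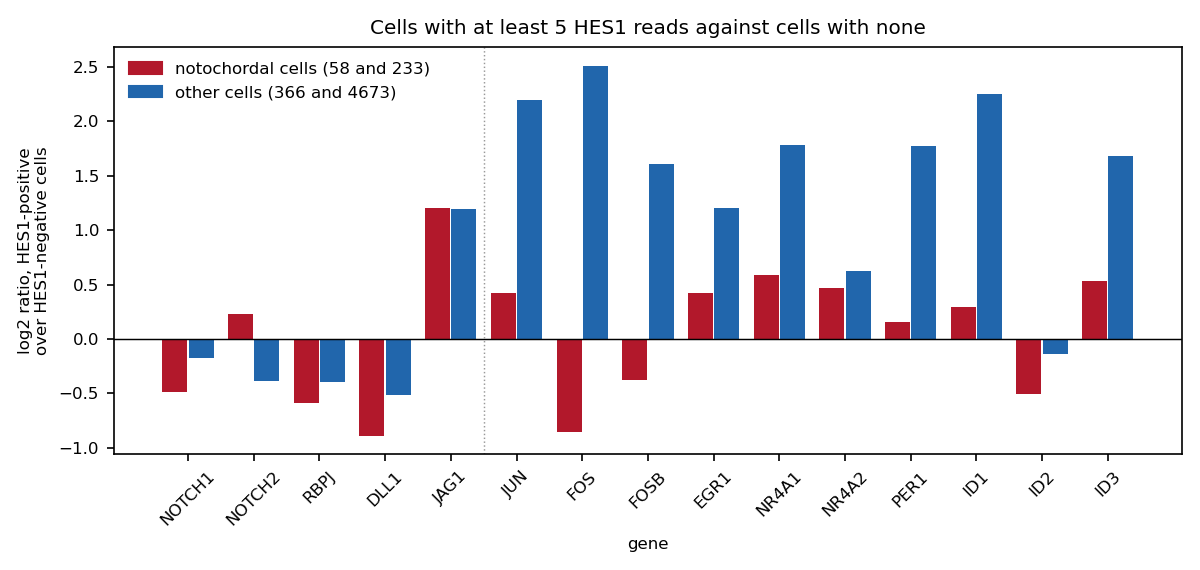
Log2 ratio of the pooled level in cells with at least 5 HES1 reads over cells with none (vertical axis) for Notch genes (left of the dotted line) and immediate early and ID genes (right), within NCs (red) and other cells (blue). JAG1 is at 1.20 in both groups and FOS at 2.51 in other cells and -0.85 in NCs. Within NCs the sign of both genes differs between A951 and A952 with all cells included. Without the top cell of each side, the ratio of FOS is negative in both tags. By share of cells, FOS is higher in the HES1-positive NCs of A951.

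Since most of these genes moved with HES1 in other cells, NCs and other cells were compared again by FOS, JUN or ID1. Cells with 5 or more reads of the gene, or none, were taken. The comparison was added after the values had been seen. These limits did not make the levels equal: among cells with at least 5 reads, FOS was still at 3009 rpm in NCs against 887 rpm in other cells and JUN at 3430 against 707 rpm, while ID1 was at 491 against 450 rpm. Among cells with at least 5 FOS reads (206 NCs and 2516 other cells), HES1 was at 50.7 against 16.1 rpm, a log2 ratio of 1.65, and found in 19.4% against 10.7% of the cells, a difference of 8.77 percentage points (3.78 to 14.8). Among cells with at least 5 JUN reads (259 and 3160) the log2 ratio was 2.03, with a difference of 12.1 percentage points (7.39 to 17.6). Cells without a read of these genes were few: of 23 NCs without FOS, 1 held 91.4% of the HES1 reads, and the 9 NCs without JUN had no HES1 read, against 7.37 rpm in 354 other cells. Among cells without an ID1 read (149 NCs and 3089 other cells), HES1 was at 37.5 against 8.06 rpm, a log2 ratio of 2.22, with a difference of 11.2 percentage points (6.21 to 17.9). Among cells with at least 5 ID1 reads (95 and 661) it was at 56.5 against 33.0 rpm, a log2 ratio of 0.78, and found in 24.2% against 19.5% of the cells, a difference of 4.69 percentage points (-3.46 to 14.6). The intervals of the differences without and with ID1 overlapped, and whether the differences were unequal was not tested. NOTCH1 was higher in NCs in both comparisons on ID1, with log2 ratios of 1.91 and 0.64, and NOTCH2 had -0.93 and -0.26. By share of cells, the NOTCH2 difference in cells with ID1 was -7.94 percentage points (-17.7 to 2.77), an interval with both signs.

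Further groups of cells crossed these genes. Of the NCs, 72 had at least 5 reads of SHH, the hedgehog ligand, and 200 had none. HES1 was at 125 rpm in the former and 24.0 rpm in the latter, and 30.6% and 14.5% of the cells had 5 or more reads, a difference of 16.1 percentage points (5.12 to 28.2). The cell with 780 HES1 reads was among them, with 33.7% of the HES1 reads of SHH-positive NCs, and the log2 ratio was 2.38 with and 2.10 without the top cell of each side. SHH-positive NCs were deeper, at a median of 226388 against 165790 reads, and at 50000 reads per cell 21.7% against 6.70% had 5 or more HES1 reads, a difference of 15.0 percentage points (5.81 to 26.5). Nearly all of this was A952, with 62 SHH-positive NCs and a log2 ratio of 2.34; in A951 there were 9, and 1 cell held 82.2% of their HES1 reads. NOTCH1 was at 27.7 against 27.2 rpm and NOTCH2 at 78.8 against 71.4 rpm in the same cells. DLL1 was at 14.5 rpm in SHH-positive and 3.02 rpm in SHH-negative NCs, where 1 cell held 58.6% of the reads of the former, and 4 of the 72 against 2 of the 200 cells had 5 or more reads, a difference of 4.56 percentage points (0.313 to 12.5). None of the 9 SHH-positive NCs of A951 had a DLL1 read.

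Among other cells, HES1 was higher where ID1 was, both being markers of the study's common3 cluster. HES1 was at 33.0 rpm in the 661 cells with at least 5 ID1 reads and 8.06 rpm in the 3089 cells with none. The log2 ratios were 1.30, 2.75, 2.32 and 1.94 in A951 to A954. NOTCH2 was at 92.7 and 149 rpm in these cells, with nearly the same share of positive cells, 44.8% and 45.1%, at a median depth of 253514 and 168073 reads. NOTCH2 was also lower in cells with both ASPN and CILP, matrix proteins of cartilage and disc, at 85.0 rpm in 885 cells against 179 rpm in 1187 cells without either; 43.3% of both had 5 or more reads, at 289482 and 133995 reads per cell. Splits on SMO and HMOX1 gave log2 ratios between -0.27 and 0.53 for NOTCH1, NOTCH2, JAG1 and HES1. By share, 5 or more HES1 reads were found in 9.98% against 5.17% of cells by SMO and 9.37% against 4.81% by HMOX1. The shares of NOTCH1, NOTCH2 and JAG1 were also higher in the positive cells. These were deeper, at medians of 248704 against 179054 reads by SMO and 249518 against 136692 reads by HMOX1. COL10A1, a collagen of hypertrophic chondrocytes, marked 72 cells in which HES1 was at 3.82 against 12.8 rpm and JAG1 at 3.22 against 13.1 rpm. By share, 6.94% and 6.73% of the cells had 5 or more HES1 reads, and 5.56% and 4.10% had 5 or more JAG1 reads.

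The genes most like each Notch gene over the 5343 other cells were sought by Pearson's r of log2(rpm + 1) within each tag, averaged over the 4 tags; the cells share 1 library and differ in depth, and all values were low. HES1 was closest to KLF10, with r of 0.25, to GADD45B, with 0.24, and to CSRNP1, with 0.23. KLF10 and GADD45B are known as rapidly induced genes. NOTCH2 was closest to DDX21, MAP4K4 and RAPGEF2, with 0.22, 0.20 and 0.19. The highest value was 0.13 for JAG1, 0.11 for NOTCH1 and 0.08 for DLL1, which are too weak to name a partner.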

How the data were processed

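Reads of 1 TAS-seq library were aligned by the authors with HISAT2 2.2.1 and assigned to genes with featureCounts 2.0.2 (versions per the submitters' notes); multi-mapping and overlapping reads were allowed, and the genome build is not given in the sources used here. The deposited values are counts of reads per gene and cell, not molecules. A second deposited matrix of 1358 columns was not used here. Cells with several tags were removed as doublets (doublets within a tag cannot be seen), then cells outside 200 to 9000 genes or with 5% or more mitochondrial reads (13 genes). Depth ranged from 24907 to 1290096 reads per kept cell.

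Pooled rpm, log2 ratios (fewer than 3 reads, or cells where shares are compared, set to 3), exact Poisson and Clopper-Pearson intervals (95%), Newcombe differences and a 2-fold rule of size came from numpy 2.4.6 and scipy 1.17.1 under Python 3.11.15; the ratio was tested on simulated data. The limit of 10% of cells, set for all genes, was applied to the 8 Notch genes after their values were seen. With a limit of 1% of cells all 8 passed, and the counts past 2-fold were 4 higher and 1 lower. Of all 13724 genes at that limit, 25.3% were higher and 13.5% lower. Of the pathway list, genes past 2-fold were named, with RBPJ and ADAM10 in any case (some of the listed genes are counted but not reported singly here); the 3 most alike genes were taken per Notch gene. Crossing groups were ID1, SHH, SMO, HMOX1, BMP2, COL10A1 and ASPN with CILP; a split on PRG4 could not be made because too few cells lacked it. Members and lists were chosen with earlier results of these data known. The results were recomputed under 18 alternatives, 1 of which (tags A951 and A952 only) was chosen after seeing the data.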

Additional observations from a re-analysis of the deposited data

How the results depend on the processing

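Over 18 alternatives, the log2 ratio of HES1 ranged from 0.88 to 2.25, that of NOTCH1 from 0.40 to 1.66 and that of NOTCH2 from -1.15 to -0.51; JAG1 (-0.31 to 0.59) and DLL1 (-0.73 to 0.25) lay on both sides of 0. HEY2 lay between -1.13 (without A952) and 2.88 with a tag left out, and HEYL turned to 0.56 with NCs taken by 1 read of both genes, to 0.0063 by mean log2(rpm + 1) and to 1.79 by share of cells, where its 1 positive NC is set to the floor of 3. Of the Notch genes, 2 were at least 2-fold higher in NCs, as were 24.4% of all genes. There were 0 by mean log2(rpm + 1), which shrinks differences of genes that most cells lack, with 10.7% of all genes. There were 4 with genes in 1% of cells, with 25.3% of all genes. Between 1 and 2 were higher when a tag was left out (1 without A952, with 25.1% of all genes). None was 2-fold lower, against 11.4% of all genes, but 1 was by mean log2(rpm + 1), without the 100 most abundant genes and with genes in 1% of cells. In these settings 7.14%, 15.3% and 13.5% of all genes were lower. Between tags 0 passed 2-fold, against 11.8% of all genes. With NCs by 20 reads, with other cells free of KRT19 and TBXT reads, at 50000 reads and by mean rpm, 1 did. In these settings 12.5%, 13.0%, 14.5% and 14.5% of all genes passed. With genes in 1% of cells 2 did, with 24.5% of all genes. Pathway genes higher in NCs numbered 9, 5 with NCs by 1 read, 4 by mean log2(rpm + 1) and 11 without A953. Of all genes, 24.4%, 16.5%, 10.7% and 24.5% were higher in the same order. Lower pathway genes numbered 4, 2 by mean log2(rpm + 1), 5 without the 100 most abundant genes, and 2 to 4 with a tag left out (2 without A952). Of all genes, 11.4%, 7.14%, 15.3% and, without A952, 15.2% were lower. Thinning lowered the shares of cells to 6.69% and 2.47% (NOTCH1), 20.4% and 35.5% (NOTCH2) and 10.7% and 3.71% (HES1) in NCs and other cells, and NCs by 1 read gave 35.8% for NOTCH2. Causes were not tested. No paired analysis was possible because the labels give no replicate numbers within the library and there was no test; values within tags stand in the report. Intervals of levels count reads, not molecules, those of shares count cells, and 76.1% of NCs carried 1 tag.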

Other observations

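HES6, which counters HES1 in neural tissue and was below the limit of 10% of cells, had 5 or more reads in 11 NCs (3.55%, 1.78 to 6.26) and 22 other cells (0.412%, 0.258 to 0.623); 1 NC held 21.8% of its reads in NCs. In cells with at least 5 BMP2 reads, NOTCH1 was at 9.92 rpm against 21.8 rpm in cells with none, while 4.48% and 3.17% of them had 5 or more reads, at a median depth of 227829 and 110604 reads. In the same cells HES1 was at 10.8 against 20.0 rpm, with 6.35% and 6.20% of the cells at 5 or more reads, and JAG1 at 13.4 against 8.28 rpm.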
